A study of Homo sapiens with 2 samples.

Results

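The genes described here encode the translation machinery: initiation factors, elongation factors, release factors, poly(A)-binding proteins and their partners, La-related proteins and ribosomal proteins. They were chosen by name, as the protein-coding genes of the deposited count table whose symbol starts with Eif, Eef, Pabp, Paip, Etf1, Gspt, Rpl, Rps followed by a digit (but not Rps6k) or Larp. The rule took 68 of the 3764 genes in the table, of which 2992 are protein-coding. RNA came from 2 samples of HepG2, a human line derived from a hepatocellular carcinoma. In the SCRN1 KO sample the gene SCRN1 (secernin 1) was disrupted by CRISPR-Cas9, and the other sample, titled as vector, has the genotype label WT. The cells of both groups were untreated and grown in the same medium. With 1 library per group, nothing that follows could be checked in a replicate. The labels do not say whether the knockout cells are 1 clone or a pool.

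The table carries mouse gene identifiers, mouse symbols and mouse positions, although the labels describe human cells. The total count was 163644 in the KO library and 178421 in the vector library, with a median of 11 counts per gene when both are summed. Scrn1 is not among the listed genes, which leaves the labels unchecked by the gene they name. Of 15 hepatocyte and HepG2 markers, 1 was listed (Krt8, with 2 counts in the KO library and 0 in the vector library), so the cell type could not be checked either. Of 5 fibroblast markers 2 were listed (19 and 18 counts), and of 5 leukocyte markers 1 was listed (Lyz2, 3 and 21 counts). Of the reference genes Actb and Gapdh, Actb was listed, with 7 and 16 counts.

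Translation begins when initiation factors load the small ribosomal subunit with initiator tRNA, bind the capped end of an mRNA, unwind it and scan to the start codon. The large subunit then joins, elongation factors deliver aminoacyl-tRNAs and move the ribosome along, and release factors free the finished protein at a stop codon, while poly(A)-binding proteins on the tail contact the cap-bound complex. Many mRNAs for ribosomal proteins and elongation factors start with a C followed by a run of pyrimidines, the terminal oligopyrimidine (TOP) tract, through which TOR signalling and the La-related protein LARP1 control their translation.

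The transcription starts of the human genes were taken from RefSeq (GRCh38.p14) and are shown because members with and without a TOP tract are compared by their counts further on. Each line runs from 20 bases before the start to 20 bases from the start onward, on the transcribed strand, and capitals mark the unbroken pyrimidine run that begins at the start base. The first 4 are the genes with at least 20 counts that differed by 2-fold or more between the libraries beyond counting error (PABPN1 only when counted apart from an overlapping gene). The next 5 are well counted genes without a TOP tract, and the last 3 are genes of the elongation and ribosomal classes with one. They are picked examples and do not show how the tract divides over well counted genes or classes. EIF4A2, whose mouse gene had 1110 counts in all, has a TOP start and is not shown. RPL4, RPL10A and RPL3 were scored as without one and are not shown either.
EIF3M: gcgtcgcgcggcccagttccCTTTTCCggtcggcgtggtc
EIF4H: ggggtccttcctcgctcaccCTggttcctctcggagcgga
PABPN1: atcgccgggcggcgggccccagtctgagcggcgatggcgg
PAIP1: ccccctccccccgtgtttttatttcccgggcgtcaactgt
EIF4G2: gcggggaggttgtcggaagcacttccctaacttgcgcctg
EEF1G: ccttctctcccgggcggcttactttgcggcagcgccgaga
EIF5A: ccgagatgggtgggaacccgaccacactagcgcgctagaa
ETF1: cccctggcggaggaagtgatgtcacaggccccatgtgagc
PAIP2: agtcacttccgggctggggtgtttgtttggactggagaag
EEF1A1: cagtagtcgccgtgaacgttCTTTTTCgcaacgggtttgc
EEF2: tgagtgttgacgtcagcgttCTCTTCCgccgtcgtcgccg
RPS19: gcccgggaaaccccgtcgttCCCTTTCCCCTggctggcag

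The windows of the first 4 genes lie at chr11:32583811-32583850 on the plus strand (EIF3M), chr7:74174336-74174375 on the plus strand (EIF4H), chr14:23321437-23321476 on the plus strand (PABPN1) and chr5:43557392-43557431 on the minus strand (PAIP1). Where RefSeq gives several starts, a start with a TOP tract is shown if there is one and otherwise the first in the table. In this set EIF3M, EEF1A1, EEF2 and RPS19 begin with a C and at least 4 further pyrimidines, and the pyrimidine run at the start of EIF4H stops after 2 bases.

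The members held 9.09% of all counts in the KO library and 9.38% in the vector library. These counts were concentrated in few genes. The 4 members with most counts (Eif4g2, Pabpc1, Eef1g and Eif5a) took 74.2% of the member counts in the KO library and 75.8% in the vector library, and the first 10 took 94.3% and 93.8%. At the other end, 41 of the 68 members summed to fewer than 20 counts, among them 30 with fewer than 10. In bulk RNA these are shares of a pooled extract, so fewer cells that express a gene and less RNA per cell cannot be told apart.

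Ratios are those of the KO over the vector library after TMM scaling (trimmed mean of M values, which corrects for depth and composition), with an exact conditional binomial interval at 95% in parentheses that covers counting error only. Genes with 20 or more summed counts were compared, and a call asked for a difference of 2-fold or more in either direction (a ratio of 2 or above, or 0.5 or below) whose interval did not hold 1. Of the 68 members, 27 could be compared. Of these, 4 were called: Pabpn1 and Paip1 were higher and Eif3m and Eif4h lower in the KO library. That is 14.8% of the compared members, where the rule called 7.24% of all 1588 compared genes, 3.34% as higher and 3.9% as lower. With 4 genes called, the share is not read as particular to the members. The median log2 ratio was -0.04 over the compared members and 0.03 over all compared genes, and 20 of the 27 members (74.1%) lay within 1.5-fold, as did 75.8% of all compared genes.

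**Figure D1:**
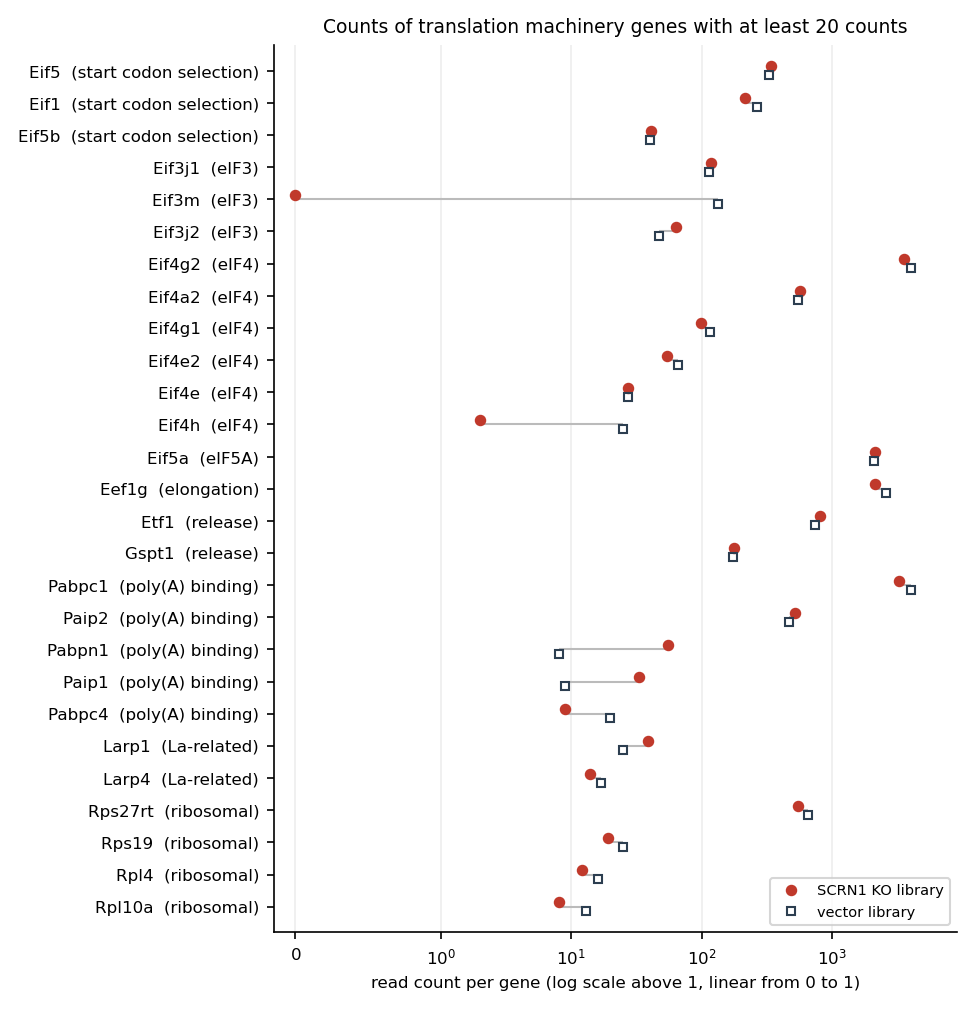
Read counts of the 27 translation machinery genes with at least 20 counts in the SCRN1 KO library (filled circles) and the vector library (open squares), on a log axis above 1, grouped by role. Most pairs of points lie close together, while Eif3m (0 and 132) and Eif4h (2 and 25) lie far lower in the KO library and Pabpn1 (55 and 8) and Paip1 (33 and 9) higher.

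Among the well counted members the libraries lay close together. All 13 members with at least 200 counts lay within 1.5-fold, as did 95.9% of the 343 genes of the table with that many counts, and their ratios ran from 0.896 for Pabpc1 to 1.23 for Paip2. Of the 13, 7 had a ratio above 1 and 6 below. The counting interval excluded 1 for 6 of them: Eif4a2, Eif5a, Etf1 and Paip2 above 1, Eef1g and Pabpc1 below. The interval holds no spread between cultures, so these small departures are descriptions of 2 libraries. With unscaled counts, as median-of-ratios scaling gave, every log2 ratio shifted by -0.15 and the median of all compared genes became -0.12. Under that setting none of the 4 intervals above 1 still excluded it, with ratios of 1.02 for Eif5a, 1.03 for Eif4a2, 1.08 for Etf1 and 1.11 for Paip2. Those of Eif4g2 (0.880), Eif1 (0.811) and Rps27rt (0.829) then lay wholly below 1. None of these 7 ratios moved to the other side of 1, and the scaling changed only whether their intervals held it.

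The genes of start codon selection lay close to 1. Eif5, which activates the GTPase of eIF2 when the start codon is found, had 341 counts in the KO library and 330 in the vector library, a ratio of 1.14 (0.980 to 1.33). Eif1, a small factor that keeps the scanning ribosome from starting at the wrong codon, had 214 and 264 counts, a ratio of 0.897 (0.746 to 1.08). Eif5b, the GTPase that joins the subunits, had 41 and 40 counts, a ratio of 1.13 (0.716 to 1.80). None of the 3 was called.

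The eIF2 genes were counted too thinly to compare. Eif2s1 and Eif2s2, which encode the alpha and beta subunits of the factor that brings the initiator tRNA, had 3 and 3 counts and 6 and 9 counts. Eif2a, which encodes a separate initiator tRNA-binding factor, had 2 and 2 and overlaps the listed gene Serp1 (46 and 41 counts). Eif2b3, of the exchange factor that recharges eIF2, had 1 and 1, and Eif2ak2, the double-stranded RNA-activated kinase of eIF2, had 0 and 3. A count of 0 allows up to 18.3 CPM (counts scaled to a common library size) in the KO library and 16.8 CPM in the vector library, taking 3 counts as the floor.

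Of the genes of eIF3, the large complex that scaffolds the small subunit, Eif3m stood apart. Eif3m had 0 counts in the KO library and 132 in the vector library. With the KO count set at the floor of 3, it was 39.8-fold lower, while its counting interval starts at 31.9-fold lower. It lies on mouse chromosome 2 from 104999656 to 105017080 (the files do not name the mouse build), is annotated as protein-coding, and overlaps no other listed gene. Its nearest listed genes with at least 20 counts on that chromosome did not show this difference: Qser1 had 20 and 18 counts and Cstf3 had 129 and 139. In the vector library Eif3m ranked 186th in FPKM (a level scaled by gene length and sequencing depth, as deposited) among all listed genes, at 225 FPKM.

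The other compared eIF3 genes, a pair, had ratios above 1. Eif3j1 and Eif3j2, mouse copies of the loosely bound J subunit, had 117 and 113 counts (ratio 1.15, 0.877 to 1.5) and 64 and 47 counts (ratio 1.51, 1.02 to 2.24). Because the copies are near-identical genes and the way shared reads were assigned is not given, their separate values are uncertain. Eif3f, a subunit of the outer part of the complex, had 9 and 3 counts, Eif3a, the largest subunit, had 2 and 3, and Eif3d and Eif3h had 0 and 2 each, too few to compare. Summed over the class, eIF3 genes had 192 and 302 counts, a ratio of 0.704 (0.584 to 0.846), and without Eif3m 192 and 170, a ratio of 1.25 (1.01 to 1.55). The direction of the class therefore rested on Eif3m.

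The cap-binding and helicase factors of the eIF4 group with at least 20 counts lay within 1.5-fold, except Eif4h. Eif4h, which stimulates the helicase eIF4A, had 2 counts in the KO library and 25 in the vector library and was 11.3-fold lower (2.82 to 98.4). It lies on mouse chromosome 5 from 134619721 to 134639490 and overlaps no other listed gene. Its nearest listed genes, 304961 to 1095995 bases away, had few counts, and all had fewer in the KO library. Gtf2i had 1 and 4, Baz1b 10 and 17, and Tmem120a 0 and 2. Whether the region as a whole differed was not tested. Eif4b, the other stimulator of eIF4A, had 4 and 9 counts, too few to compare. The helicase itself was represented by Eif4a2, with 563 and 547 counts (ratio 1.14, 1.01 to 1.28), while its paralogue Eif4a1 had 4 and 3.

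Eif4g2, which encodes a relative of eIF4G that lacks the eIF4E-binding region, had 3545 counts in the KO library and 4029 in the vector library, a ratio of 0.974 (0.931 to 1.02). Eif4g1, the main scaffold of the cap-binding complex, had 98 and 116 counts, a ratio of 0.935 (0.707 to 1.23). Eif4e, the cap-binding protein, had 27 in each library, a ratio of 1.11 (0.625 to 1.96). Eif4e2, a cap-binding relative that represses translation, had 54 and 66 counts, a ratio of 0.905 (0.620 to 1.32). None of these 4 intervals excluded 1. Eif4e3 (11 and 4 counts) and Eif4g3 (7 and 12) had fewer than 20 counts, and Eif4e3 overlaps the listed gene Gm20696.

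**Figure D2:**
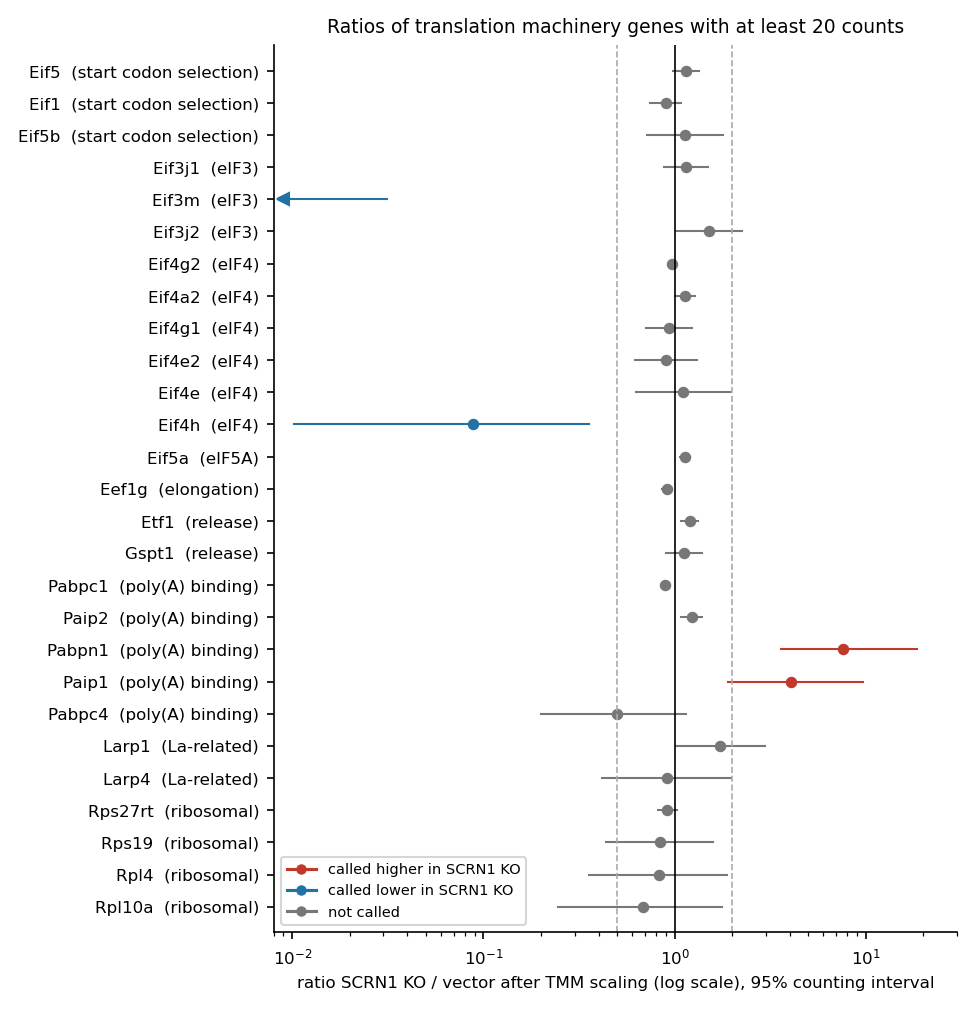
Ratio of the SCRN1 KO over the vector library for the 27 translation machinery genes with at least 20 counts, on a log axis, with 95% counting intervals; dashed lines mark 0.5 and 2. Pabpn1 (7.61, or 1.52 when counted with the overlapping Gm20521) and Paip1 (4.06) are called higher, Eif4h (0.0885) lower, and the arrow of Eif3m stands for a ratio of 0 in the KO library with its interval ending at 0.0314.

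Eif5a encodes the hypusine-bearing factor that helps ribosomes through difficult peptide bonds. It had 2124 counts in the KO library and 2082 in the vector library, a ratio of 1.13 (1.06 to 1.20). Among elongation factors the counts lay almost entirely in Eef1g, a structural subunit of the complex that recharges eEF1A. Eef1g had 2116 and 2565 counts, a ratio of 0.913 (0.861 to 0.967), and was not called.

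The remaining elongation factors had few counts, and most had fewer in the KO library. Eef1a1, which delivers aminoacyl-tRNAs to the ribosome, had 3 counts in the KO library and 15 in the vector library, a ratio of 0.221 (0.0411 to 0.782). Eef2, the translocase, had 3 and 11, a ratio of 0.302 (0.0541 to 1.14). Both fell short of 20 counts and were not part of the comparison, although the interval of Eef1a1 excluded 1. Eef1d had 0 and 4 counts, Eef1b2 had 3 and 3, and Eef1a2, the paralogue of Eef1a1, had 2 and 0. Eef1b2 overlaps the listed gene Ndufs1 (41 and 46 counts). Summed without Eef1g, the 5 genes had 11 and 33 counts, a ratio of 0.369 (0.168 to 0.748), against 0.906 (0.855 to 0.960) with it.

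The release factor genes lay slightly above 1. Etf1, the factor that reads stop codons, had 799 counts in the KO library and 737 in the vector library, a ratio of 1.20 (1.08 to 1.33). Gspt1, its GTPase partner, had 175 and 173, a ratio of 1.12 (0.902 to 1.39). Gspt2, a paralogue of Gspt1, had 1 count in each library. Neither compared gene was called.

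Both genes called higher belonged to the poly(A)-binding proteins and their partners. Pabpn1, the nuclear poly(A)-binding protein that sets tail length, had 55 counts in the KO library and 8 in the vector library, a ratio of 7.61 (3.60 to 18.5). Paip1, which binds PABPC1 and stimulates translation, had 33 and 9, a ratio of 4.06 (1.90 to 9.64). Pabpn1 lies on mouse chromosome 14 from 54892500 to 54898169 and Paip1 on chromosome 13 from 119428601 to 119458218.

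The value of Pabpn1 depended on a gene that overlaps it. The listed protein-coding gene Gm20521 spans chromosome 14 from 54883441 to 54898137, and so covers nearly the whole of Pabpn1. Gm20521 had 0 counts in the KO library and 32 in the vector library, the opposite direction to Pabpn1. Counted together, the pair had 55 and 40 counts, a ratio of 1.52 (0.994 to 2.35), which no longer passed the rule. How reads shared by the pair were assigned is not given, so the direction of Pabpn1 alone is uncertain. Of the next listed genes, Bcl2l2 had 4 and 5 counts and Myh6 had 12 and 0. Paip1 overlaps no other listed gene, and its nearest were Zfp131 (7 and 9 counts), Gm21378 (29 and 38) and Mrps30 (0 and 2).

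The best counted genes of this class lay on either side of 1, both within 1.5-fold. Pabpc1, the main cytoplasmic poly(A)-binding protein, had 3251 counts in the KO library and 4016 in the vector library, a ratio of 0.896 (0.855 to 0.939). Paip2, a repressor that displaces PABPC1 from the tail, had 520 and 468, a ratio of 1.23 (1.08 to 1.40). Pabpc4, a cytoplasmic paralogue, had 9 and 20, a ratio of 0.498 (0.200 to 1.14), with an interval that held 1, and Pabpc6 had 1 and 1. The class summed to 3869 and 4522 counts, a ratio of 0.947 (0.907 to 0.989), and to 618 and 506 without Pabpc1, a ratio of 1.35 (1.20 to 1.52).

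La-related proteins were not called. Larp1, which binds TOP mRNAs, had 39 counts in the KO library and 25 in the vector library, a ratio of 1.73 (1.02 to 2.98). Larp4, which binds poly(A) tails, had 14 and 17, a ratio of 0.911 (0.416 to 1.96). Larp4b had 5 and 10. Without Larp1 the class ratio was 0.779 (0.409 to 1.45) in place of 1.23 (0.834 to 1.83).

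**Figure D3:**
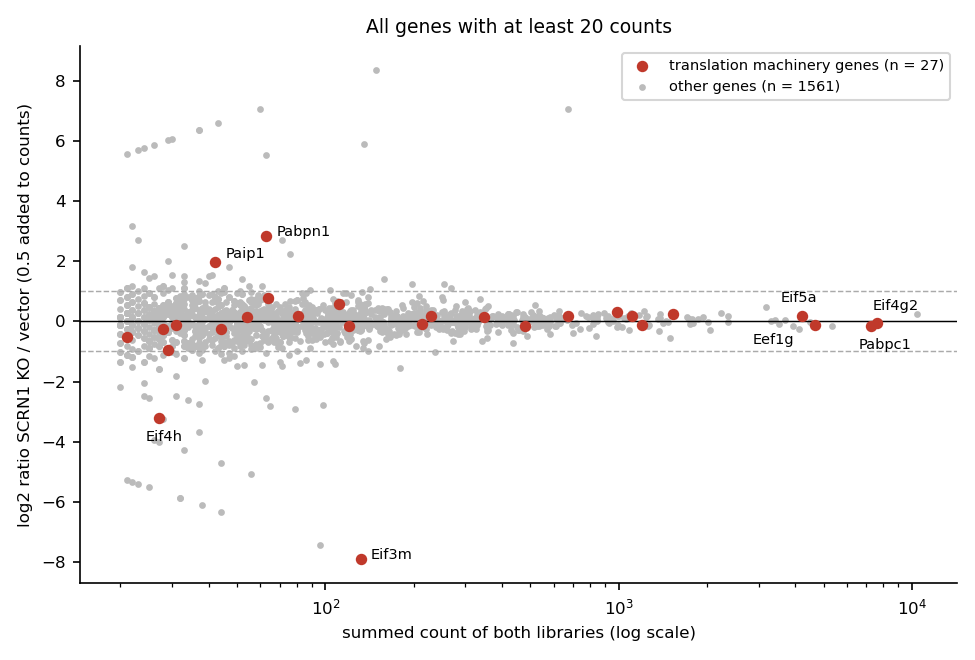
Log2 ratio of the SCRN1 KO over the vector library (0.5 added to each count) against the summed count on a log axis, for 27 translation machinery genes and 1561 other genes with at least 20 counts; dashed lines mark 2-fold. The best counted members (Eif4g2, Pabpc1, Eef1g, Eif5a) sit near 0, and Eif3m is at -7.90.

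Of the 24 ribosomal protein genes in the table, 17 of the large and 7 of the small subunit, 4 had at least 20 counts and none of them was called. Rps27rt, annotated as a retrogene of ribosomal protein S27, held most counts of the class, with 543 in the KO library and 655 in the vector library, a ratio of 0.917 (0.817 to 1.03). Rps19, a small-subunit protein needed for 18S rRNA processing, had 19 and 25, a ratio of 0.841 (0.438 to 1.59). Rpl4 had 12 and 16, a ratio of 0.830 (0.358 to 1.87), and Rpl10a had 8 and 13, a ratio of 0.681 (0.245 to 1.77). All 4 ratios lay below 1 with intervals that held 1, but that of Rps19 was above 1 when it was counted with its pseudogene copy Rps19-ps6 (622 and 600 counts, 1.15, 1.02 to 1.29).

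The 20 ribosomal protein genes with fewer than 20 counts leaned to the vector library. They had 20 counts in the KO library and 73 in the vector library, a ratio of 0.303 (0.175 to 0.503). Of the 20, 15 had more counts in the vector library, 1 had more in the KO library (Rpl22l1, 2 and 0) and 4 were equal. Over all 2176 genes with fewer than 20 counts, 914 (42.0%) had more in the vector library, which is also the deeper one. The best counted were Rps9 (3 and 10), Rpl24 (4 and 7) and Rps3 (3 and 7). Rpl7 (0 and 8) and Rpl18 (0 and 6) were among 11 genes at 0 in the KO library, against 1 at 0 in the vector library.

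**Figure D4:**
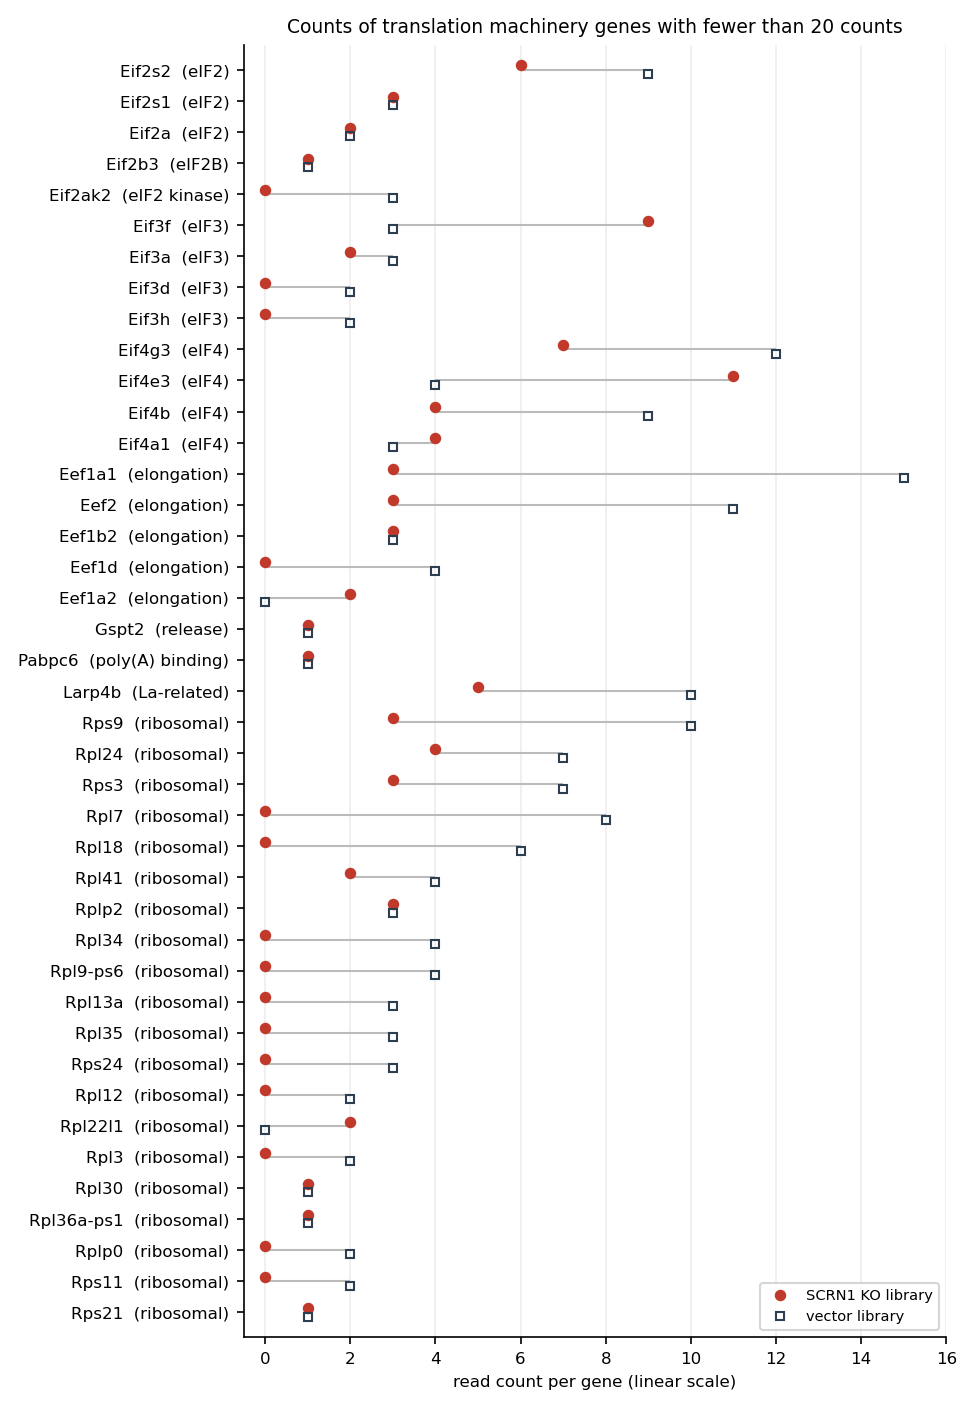
Read counts of the 41 translation machinery genes with fewer than 20 counts in the SCRN1 KO library (filled circles) and the vector library (open squares), on a linear axis, grouped by role. Of the 41, 26 (63.4%) had more counts in the vector library, 5 had more in the KO library and 10 were equal. Of all 2176 genes with fewer than 20 counts, 914 (42.0%) had more in the vector library, 541 had more in the KO library and 721 were equal. These counts are unscaled, and the vector library has the larger total.

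Over all members, 16 of 68 (23.5%) were listed at 0 in the KO library, against 2 (2.94%) in the vector library. In the whole table these shares were 12.7% and 5.84%. Among genes with fewer than 10 counts, 15 of 30 members were at 0 in the KO library and 2 of 30 (6.67%) in the vector library, where the shares over all 1795 such genes were 24.4% and 10.6%. The 41 members with fewer than 20 counts summed to 87 and 174, a ratio of 0.553 (0.423 to 0.720), and all 2176 genes of the table with so few counts to 5095 and 6578, a ratio of 0.857 (0.826 to 0.889). The lean of thinly counted genes to the vector library was thus present in the table as a whole. Of the listed markers, Lyz2 (3 and 21 counts) and the reference gene Actb (7 and 16) had fewer counts in the KO library. Krt8 (2 and 0) went the other way, and the fibroblast markers (19 and 18) were nearly equal. How these genes relate to the low counts of the members was not tested.

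TOP tracts were more frequent at the starts of the members than in the RefSeq table as a whole. Of the 68 members, 52 matched a human gene in that table by upper-cased symbol. A C at the start base followed by at least 4 pyrimidines, read on the transcribed strand only, was found at 24 of their 78 starts (30.8%), against 4.07% of all 35116 starts. Of the matched members, 24 had such a start: 15 of 18 ribosomal protein genes, 3 of 4 elongation factor genes, 3 of 3 eIF3 genes, 2 of 10 eIF4 genes and Eif2a. The matched genes of start codon selection, release, eIF5A, poly(A) binding and the La-related class had none. In the poly(A)-binding class 3 of 6 genes were matched (Paip1, Paip2 and Pabpn1), so Pabpc1, Pabpc4 and Pabpc6 were not scored.

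Among the matched members, those scored as TOP were the thinly counted ones. The score asks for a C at the exact annotated base. At the start shown for EEF1G an A comes first, so Eef1g (4681 counts in all) was scored as without a TOP start. Rpl4 (28 counts in all), Rpl10a (21) and Rpl3 (2) were scored as without one too, so ribosomal protein genes stand on both sides. Whether the mRNAs of these genes carry the tract was not tested. Pabpc1 (7267 counts in all) had no match and was not scored. The median of the TOP members was 6 counts over both libraries, against 48 for the 28 matched members without a TOP start. Of the 24, 3 reached 20 counts, against 19 of the 28. In counts of 42 and 100, the 21 TOP members with fewer than 20 counts had a ratio of 0.465 (0.316 to 0.673). The 9 members without a TOP start and with fewer than 20 counts had 32 and 39 counts, a ratio of 0.908 (0.551 to 1.49). The difference between these ratios was not tested, and 18 of the 24 TOP members are ribosomal protein or elongation factor genes, so the tract and the class cannot be told apart here. The best counted TOP member, Eif4a2 (1110 counts in all), had a ratio above 1, and Eif3m, at 0 in the KO library, is a TOP member too.

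Per unit of length, 1 paralogue held most of the level in several families. In deposited FPKM, Eif4g2 made up 97.1% of the summed level of the eIF4G family in the KO library and 96.9% in the vector library. Eif4a2 made up 98.8% and 99.1% of the eIF4A pair, Pabpc1 99.6% and 99.4% of the cytoplasmic poly(A)-binding proteins, and Gspt1 98.9% and 98.9% of the eRF3 pair. In these 4 families the shares differed little between the libraries. In others they differed more, on few counts: Eif4e3 made up 30.6% of the eIF4E family in the KO library and 12.4% in the vector library, and Eif4e2 42.4% and 57.6%. Eef1a1 made up 35.8% and 100% of the eEF1A pair. Eif3j1 made up 42.0% and 48.8% of the eIF3J pair, but these near-identical mouse copies may share reads, so their split is uncertain. Both the FPKM lengths and the counts are those of mouse gene models, although the labels describe human cells. How reads were assigned to each mouse gene is not given, so these shares are not read as the shares of the paralogues in human cells.

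By FPKM the leading members came in the same order in both libraries down to Eif1. Rps27rt led with 8838 FPKM in the KO library and 9776 FPKM in the vector library, rank 3 of all listed genes in each. Eef1g followed with 4078 and 4533 FPKM and Eif5a with 2822 and 2537 FPKM. Pabpc1 (2208 and 2501 FPKM) and Paip2 (2183 and 1802 FPKM) came next, then Eif4g2 (1549 and 1614 FPKM), Etf1 (1274 and 1078 FPKM) and Eif1 (393 and 445 FPKM). Eef1a1 stood at 3.26 FPKM in the KO library and 14.96 FPKM in the vector library. These levels too are those of mouse gene models, so the order is not read as the order in human cells. How reads shared by Rps27rt and the S27 gene it copies were assigned is not given, so its rank is uncertain.

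**Figure D5:**
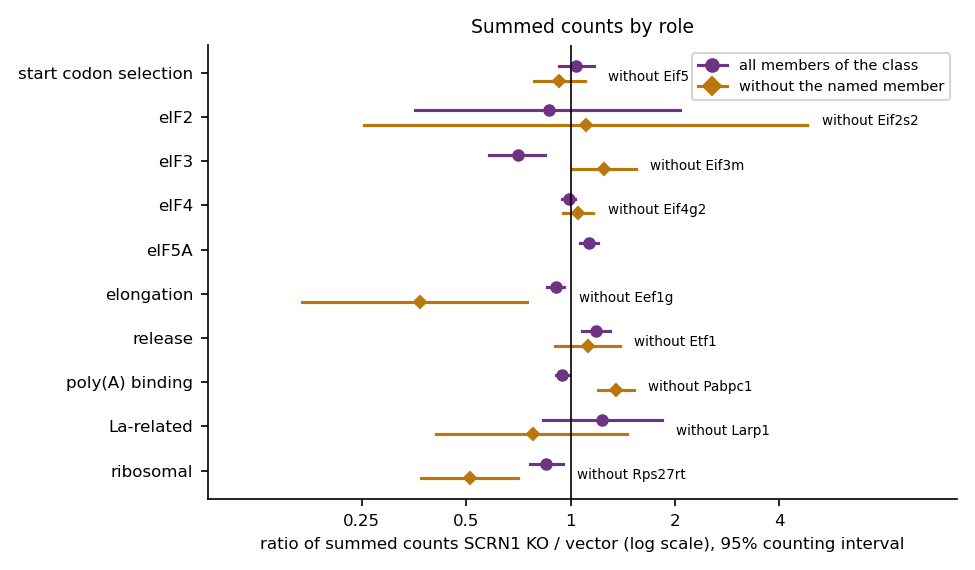
Ratio of the summed counts of each role class, SCRN1 KO over vector, on a log axis with 95% counting intervals, for all members of the class (circles) and without the member whose removal moves the ratio most (diamonds). The eIF3 ratio moves to the other side of 1 without Eif3m (0.704 and 1.25), and the elongation (0.906 and 0.369) and ribosomal (0.852 and 0.514) ratios move further below 1 without Eef1g and Rps27rt.

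Summed over all 68 genes the libraries were close, with 14870 counts in the KO library and 16739 in the vector library, a ratio of 0.983 (0.962 to 1.005). The sum was set by the few abundant genes. Ribosomal protein genes summed to 602 and 782, a ratio of 0.852 (0.765 to 0.949), and without Rps27rt to 59 and 127, a ratio of 0.514 (0.371 to 0.705). The eIF4 genes summed to 4315 and 4838 (0.987, 0.947 to 1.03), the genes of start codon selection to 596 and 634 (1.04, 0.929 to 1.17) and the release factors to 975 and 911 (1.18, 1.08 to 1.3).

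Other genes of translation, outside the naming rule, were counted from 5 lists of 111 symbols. Of these 45 were listed and 29 had at least 20 counts. By the 2-fold rule 0 of the 29 were called, where it called 7.24% of all compared genes. The mRNA-bound regulators had the most members, with 16 compared and a median log2 ratio of -0.02. Ybx1, a cold-shock domain protein, had 2123 counts in the KO library and 2384 in the vector library (ratio 0.986, 0.929 to 1.05).

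Among the 6 compared helpers of initiation, Ddx3x, an RNA helicase of the scanning complex, had 1787 counts in the KO library and 1915 in the vector library (ratio 1.03, 0.968 to 1.1), and Bzw1, an eIF5 mimic, had 715 and 671 (1.18, 1.06 to 1.31). The TOR and S6 kinase list had 2 compared genes, Rps6ka3 (191 and 298 counts, 0.709, 0.588 to 0.853) and Rps6kb1, which encodes S6 kinase 1 (120 and 141 counts, 0.942, 0.732 to 1.21). The ribosome rescue and nascent chain list had Ubap2l (802 and 950 counts, 0.934, 0.849 to 1.03) and Serbp1 (851 and 889 counts, 1.06, 0.963 to 1.17). Of the tRNA synthetases 3 were compared, led by Dars (63 and 73 counts, 0.955, 0.671 to 1.36) and Vars (29 and 22 counts, 1.46, 0.809 to 2.66). No list had a compared gene that passed the rule.

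The authors' deposited table gave an adjusted p at or under 0.05 to the same 4 members. In the authors' deposited table the adjusted p was 9.33e-25 for Eif3m, 1.52e-06 for Pabpn1, 0.00218 for Eif4h and 0.0156 for Paip1. The log2 fold changes of the authors' deposited table run as vector over knockout, so that Pabpn1 stands there at -2.91 and Eif4h at 3.52. Those p-values compare 1 library with 1, and the files do not give the spread they assume.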

How the data were processed

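The members and gene lists were chosen with earlier results of these data known. The deposited table holds unnormalized counts for each gene, and its FPKM columns, per the file headers, are scaled by gene length and by depth. The deposited log2 fold change (vector over knockout) and p-value columns were used only where named. StringTie 1.3.0, HISAT2 2.0.4, bcl2fastq 2.19 and the human build GRCh38 are named, per the submitters' processing notes, while the table lists mouse genes. No source used here gives the mouse build, the program that counted reads or whether it used strand. Counts were scaled with TMM (edgeR 4.0.16, R 4.3.3), and the quasi-likelihood test was left out because a single library in each group gives no spread to test against. Ratios have exact conditional binomial (Clopper-Pearson) intervals at 95%. They hold counting error alone, as does the floor of 3 counts, because reads of 1 molecule can repeat. Before taking log2, each count had 0.5 added.

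Named genes were the called members, those with at least 200 counts, the first 3 of each role class by count, members at 0 in 1 library with at least 10 counts, and up to 4 called and the 2 most abundant genes of each other list. Other members, the genes neighbouring or overlapping them and the starts of the TOP genes were chosen after their values were seen. The naming rule was read as taking Rplp0 and Rplp2 as well. Alternatives covered scaling (upper quartile, size factors of DESeq2 1.42.0 and library totals), the count minimum, the fold and the members pooled. The rule was run on simulated counts that hold counting error only, as its intervals assume, so that run does not cover the spread between cultures. Intervals were computed with SciPy 1.17.1 under Python 3.11.15, and figures drawn with matplotlib 3.10.9. Protein sequences were not used here. 1 gene that the rule names is not reported here.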

Additional observations from a re-analysis of the deposited data

How the results depend on the processing

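The 4 called members (Eif3m, Eif4h, Pabpn1, Paip1) passed under all 3 other scalings, and 3 passed when Pabpn1 was counted with Gm20521, an alternative chosen after seeing the data. Members called numbered 2 with a minimum of 50 counts, where Eif4h and Paip1 lie below it, and 7 with no minimum, which tests more genes. All genes called numbered 188 with a minimum of 10 counts, 42 with 50, 295 with none, 181 at 1.5-fold and 63 at 3-fold. With median-of-ratios scaling, which left the counts unscaled, the split of all called genes was 42 higher and 89 lower. The same setting gave ratios of 0.888 for all members, 0.892 for eIF4, 1.02 for eIF5A, 0.819 for elongation, 0.856 for poly(A) binding and 1.07 for release factors. The start codon class then lay below 1, at 0.940. Leaving out the 2 members with most counts gave 1.03 for all members. Leaving out the member that moved its class most gave 0.779 for La-related proteins (without Larp1), 1.25 for eIF3 (Eif3m), 1.05 for eIF4 (Eif4g2), 0.369 for elongation (Eef1g), 1.35 for poly(A) binding (Pabpc1), 0.514 for ribosomal proteins (Rps27rt) and 0.928 for start codon selection (Eif5). No paired analysis was possible because each group has 1 library. Depth limits the comparison to 27 of 68 members.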

Other observations

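The table also lists 9 pseudogenes named for a member. Of these, 7 had 1 or 2 counts in each library. Rps19-ps6, a processed pseudogene, had 603 counts in the KO library and 575 in the vector library (ratio 1.16, 1.03 to 1.3), far more than the 19 and 25 of Rps19 itself. Rpl3-ps1 had 0 and 10 counts, the same direction as Rpl3 (0 and 2). Counted together, Rps19 and Rps19-ps6 had 622 and 600 counts (ratio 1.15, 1.02 to 1.29), which lies above 1 where Rps19 alone lay at 0.841. With all 9 added, the ratio over all members was 0.988. How reads shared by a gene and its copies were assigned was not tested.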
